A study of Mus musculus with 79 samples.

Results

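The genes that encode the pore-forming subunits of AMPA and kainate receptors were described in bulk RNA-seq of the medial prefrontal cortex (mPFC) and the ventral hippocampus (vHipp) of mice. These were 9 genes of the 55471 in the count table, chosen by symbol: Gria1 to Gria4 for the AMPA receptor subunits GluA1 to GluA4, and Grik1 to Grik5 for the kainate receptor subunits GluK1 to GluK5. Each of the 9 symbols matched a single identifier, and all passed the filter on low counts in both regions. The 79 libraries came from 40 wild-type (WT) male CD-1 mice housed in groups of 4. Their stated age was 9 to 10 weeks, and the study's methods do not say at which step. There were 10 mice in each of 4 groups: non-stressed controls (CTRL) given saline, CTRL given ketamine, mice after 21 days of chronic social defeat stress (CSDS) given saline, and CSDS mice given ketamine. Ketamine (10 mg/kg) or saline was given as a single injection, and 7 days later the tissue was punched out of frozen brain slices. In this version of CSDS the defeated mice went back to their own cage mates after each defeat. Each mouse gave 1 library per region, apart from a ketamine-treated CSDS mouse without an mPFC library, so that group had 9 mPFC libraries.

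AMPA and kainate receptors are ion channels that open when glutamate binds, each made of 4 subunits around a pore. AMPA receptors carry most fast excitatory transmission, and their GluA2 content sets how well calcium passes. Kainate receptors act both before and after the synapse. GluK4 and GluK5 bind the agonist kainate tightly but form working channels only together with GluK1, GluK2 or GluK3, and at the mossy fibre synapses of the hippocampus GluK4 and GluK5 are classic components.

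Total counts per library lay between 11726129 and 41767119, and the group medians lay between 18540245 and 20432446. The region labels matched their markers for the most part. Of 6 cortical layer markers, 5 were higher in the mPFC (Cux2 by 2.55 and Tbr1 by 1.81 on the log2 scale) and 1, Bcl11b, was lower. Of 6 hippocampal markers, 5 were higher in the vHipp (Prox1 and Fibcd1 were lower in the mPFC by log2 fold changes of -2.84 and -3.27), and 1, Wfs1, was higher in the mPFC. Markers of oligodendrocytes (5) and of microglia (4) did not pass the test between the regions in any case. Marker sums varied widely between libraries: those of oligodendrocytes ranged from 494 to 5815 CPM in the mPFC. The vHipp library of saline-treated CSDS mouse 13 held 90.5 CPM of choroid plexus markers. After the data were seen, 3 libraries were set apart, for the lowest correlation with the rest of the region or a marker list far out. The vHipp library of ketamine-treated CSDS mouse 11 had a median correlation of 0.970 with the other vHipp libraries (median over libraries 0.989) and the highest summed level of astrocyte markers, 3043 CPM, where the vHipp medians of the groups lay between 1049.5 and 1239.5 CPM. The vHipp library of saline-treated CSDS mouse 9 held 697 CPM of choroid plexus markers, against group medians between 20.1 and 24.5 CPM. The mPFC library of ketamine-treated CSDS mouse 1 had the lowest correlation in its region, 0.980. Some results of the 9 genes are also given without 1 or more of them. Correlations between genes within a region are given with all libraries only.

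The stretch shown here for 6 of the genes codes for the pore loop, and it carries the codon at which the RNA of GluA2, GluK1 and GluK2 is edited by adenosine deaminases. The table counts reads per gene, so edited and unedited transcripts of a gene enter the same value below. Each stretch is 30 bases of the annotated transcript (GENCODE release M21, GRCm38), with the glutamine codon in capitals.
Gria1: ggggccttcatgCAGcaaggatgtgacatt
Gria2: ggtgcctttatgCAGcaaggatgcgatatt
Gria3: ggtgcttttatgCAGcaaggatgtgatatt
Gria4: ggtgcctttatgCAAcaaggatgtgacatt
Grik1: ggagctctcatgCAGcaaggatcggagctg
Grik2: ggagctctcatgCAGcaaggttctgagctc
The genes lie at chr11:57011387-57330244 (Gria1, plus strand), chr3:80681450-80802835 (Gria2, minus), chrX:41400854-41678601 (Gria3, plus), chr9:4417896-4796234 (Gria4, minus), chr16:87895900-88290265 (Grik1, minus) and chr10:49094833-49788766 (Grik2, minus). The other kainate receptor genes lie at chr4:125490700-125714173 (Grik3, plus), chr9:42518135-42944493 (Grik4, minus) and chr7:25009849-25072346 (Grik5, minus). No gene on the opposite strand shares exon bases with any of the 9. The codon lies in coding exon sequence of each gene. In Gria2 it is at chr3:80706911-80706913 on the minus strand, in exon 11 of 16. In Grik1 it is at chr16:87940542-87940544 (minus strand) and in Grik2 at chr10:49244329-49244331 (minus strand), both in exon 12 of 16, with the stretch running on into the next exon.

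The AMPA receptor genes differed between the regions in opposite directions. Gria1 and Gria2 were lower, and Gria3 and Gria4 higher, in the mPFC than in the vHipp. The levels are CPM, the read counts of a gene scaled to a common library size, after TMM normalization across both regions. Gria1 (GluA1, the subunit delivered to synapses in hippocampal long-term potentiation) lay between 391 and 541 CPM in the 39 mPFC libraries, with a median of 459 CPM, and between 895 and 1418 CPM in the 40 vHipp libraries, with a median of 1243 CPM. No mPFC library reached the lowest vHipp library. Gria1 was 2.67-fold lower in the mPFC (log2 fold change -1.41 ± 0.028 (SE), adjusted p = 1.5e-57, edgeR). In bulk tissue, fewer cells that express a gene and less RNA per cell cannot be told apart.

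Gria2 (GluA2) ranged from 370 to 787 CPM in the mPFC (median 578) and from 542 to 1115 CPM in the vHipp (median 857), and 29 of 39 mPFC libraries lay inside the vHipp range. Its log2 fold change was -0.52 ± 0.049 (adjusted p = 1.8e-15), and it was lower in the mPFC in 39 of 39 mice with both regions. Gria3 (GluA3) ranged from 242 to 381 CPM in the mPFC (median 312) and from 160 to 266 CPM in the vHipp (median 219), with a log2 fold change of 0.50 ± 0.036 (adjusted p = 2.7e-21). Gria4 (GluA4, prominent in parvalbumin interneurons) did not overlap between the regions. It ranged from 101.4 to 138.8 CPM in the mPFC (median 119.3) and from 57.6 to 89.6 CPM in the vHipp (median 69.6), with a log2 fold change of 0.79 ± 0.035 (adjusted p = 4.8e-34). Summed markers of inhibitory neurons (7 genes) had group medians between 769 and 801 CPM in the mPFC and between 788 and 825 CPM in the vHipp, but the members of this list differed in both directions: Vip (log2 fold change 2.09) and Sst (0.31) were higher in the mPFC, Gad1 (-0.30), Gad2 (-0.19), Slc32a1 (-0.11) and Lhx6 (-0.13) were lower, and Pvalb was not called (-0.09, adjusted p = 0.465). Their part in the Gria4 difference was not tested.

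**Figure D1:**
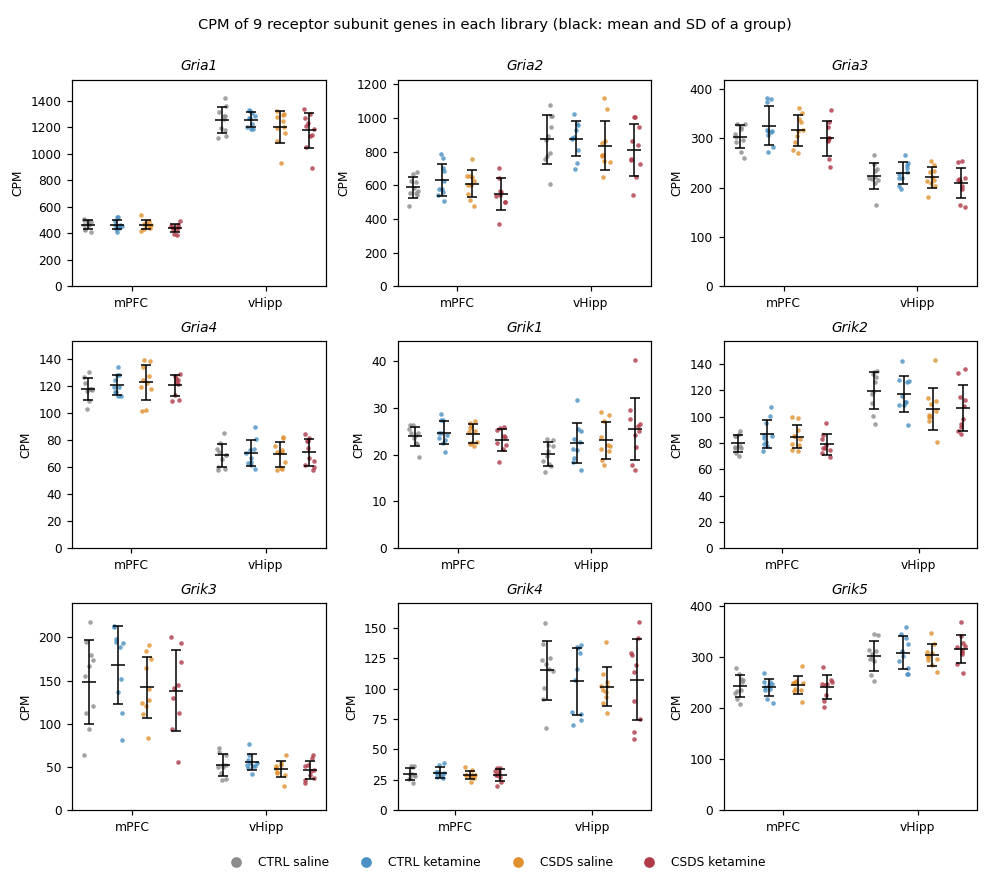
CPM (linear axis from 0) of the 9 genes in each library, by region and group (colors), with the mean and SD of each group in black. Gria1 and Grik4 in the mPFC lie below every vHipp library, Gria4 lies above, and the groups within a region overlap in all 9 panels.

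Among the kainate receptor genes, Grik3 was higher in the mPFC, and Grik2, Grik4 and Grik5 were lower. Grik3 (GluK3) ranged from 55.3 to 218 CPM in the mPFC (median 151.2) and from 27.9 to 76.1 CPM in the vHipp (median 51.1). It was 2.97-fold higher in the mPFC (log2 fold change 1.57 ± 0.088, adjusted p = 6.2e-28), and 37 of 39 mPFC libraries lay above the highest vHipp library. Its spread between mice was also the widest of the 9 genes in the mPFC, with a coefficient of variation of 29.5%.

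Grik4 (GluK4, known from the CA3 field of the hippocampus) differed most of the 9 genes. It ranged from 19.6 to 38.5 CPM in the mPFC (median 29.0) and from 58.8 to 155 CPM in the vHipp (median 109.5), with no overlap. It was 3.64-fold lower in the mPFC (log2 fold change -1.86 ± 0.068, adjusted p = 7.3e-40). The vHipp also held a wide spread, with a coefficient of variation of 23.7%. Grik5 (GluK5, its closest relative) differed less. It ranged from 201 to 282 CPM in the mPFC (median 247) and from 253 to 368 CPM in the vHipp (median 307), with a log2 fold change of -0.34 ± 0.029 (adjusted p = 4.6e-18).

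Grik2 (GluK2, the most widely used principal subunit) ranged from 69.3 to 107.03 CPM in the mPFC (median 80.9) and from 80.7 to 142.9 CPM in the vHipp (median 111.2). Its log2 fold change was -0.44 ± 0.039 (adjusted p = 3.5e-17), and it was lower in the mPFC in 37 of 39 mice. Grik1 (GluK1, a subunit of cortical and hippocampal interneurons among other cells) was the gene without a call in this unpaired fit. It ranged from 18.5 to 28.7 CPM in the mPFC (median 24.2) and from 16.3 to 40.2 CPM in the vHipp (median 21.9), with a log2 fold change of 0.08 ± 0.048 (adjusted p = 0.147), and it was higher in the mPFC in 24 of 39 mice. The vHipp library at 40.2 CPM was that of mouse 11. Without that library the log2 fold change of Grik1 was 0.11 with an adjusted p of 0.0383, so it passed the threshold. With the library of mouse 11 kept, it was also called with the mouse as a block, over the 39 mice with both regions (0.10, adjusted p = 0.0471). Over all libraries it was called by limma-voom with the mouse as a random effect (0.10, adjusted p = 0.0426).

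In all, 8 of the 9 genes passed an adjusted p of 0.05 between the regions, where 48.9% of the 31534 genes tested did. These tests took libraries of the same mouse as independent. With the mouse as a block or as a random effect, all 9 genes were called on average over the groups. The regions did not overlap for 3 of the 9, where 2.92% of all genes were so separated, 4 of the 9 were called with at least a 1.5-fold difference, where 21.1% of all genes were, and 3 of the 9 with at least a 2-fold difference, where 13% were. The median log2 fold change was -0.34 for the 9 genes and -0.00027 for all genes tested. Of the 8 genes called on average, each was also called, in the same direction, within each of the 4 groups, where 29% (CTRL saline), 29.2% (CTRL ketamine), 28% (CSDS saline) and 27.2% (CSDS ketamine) of all genes were called. Grik1 had positive estimates in 3 groups, among them CTRL saline mice, where it was called (log2 fold change 0.25 ± 0.095, adjusted p = 0.0399), and a negative one in CSDS ketamine mice (-0.13 ± 0.098, adjusted p = 0.347).

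**Figure D2:**
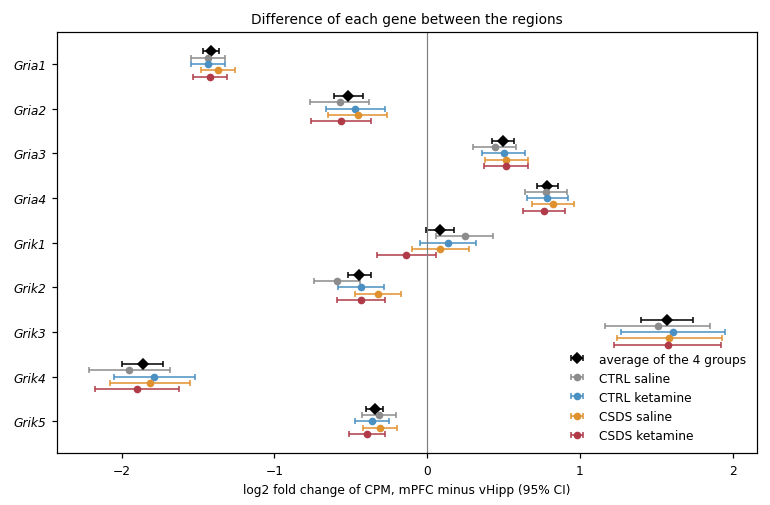
Log2 fold change of CPM, mPFC minus vHipp, of each gene on average (diamonds) and within each group (circles), with approximate 95% confidence intervals. Only the intervals of Grik1 reach 0, on average and in 3 of 4 groups, and Grik3 (1.57) and Grik4 (-1.86) mark the ends of the range.

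Levels of different genes were compared per kilobase of annotated exons. In the mPFC the order began with Gria1 at 76.01 ± 5.75 CPM per kilobase (SD, n = 39), Grik5 at 46.8 ± 3.78, Gria2 at 38.3 ± 5.56 and Gria3 at 31.6 ± 3.35. Gria4 (19.1 ± 1.45) and Grik3 (16.6 ± 4.91) followed, then Grik2 (6.24 ± 0.68), Grik4 (4.96 ± 0.73) and Grik1 (3.58 ± 0.33). Neighbours in this order overlapped between libraries, apart from Gria1 over Grik5 and Gria3 over Gria4, which held without overlap in 39 of 39 libraries. In the vHipp, Gria1 stood at 202 ± 17.6 CPM per kilobase (n = 40), 3.41-fold above Grik5 (59.4 ± 5.33), and Gria2 (54.5 ± 8.74) was next. Gria1 over Grik5 and Gria2 over Gria3 held there without overlap. Grik4 rose in the order from the eighth place in the mPFC to the fifth in the vHipp (18.0 ± 4.28 CPM per kilobase), between Gria3 (22.4 ± 2.59) and Gria4 (11.0 ± 1.42). Grik3 stood at 5.59 ± 1.21, next to last, above Grik1 (3.39 ± 0.71).

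The order depended on the length that was used. With the length of the longest transcript, Gria3 took the second place in the mPFC (59.8 ± 6.34 CPM per kilobase), level with Grik5 (59.6 ± 4.81) and Gria2 (57.3 ± 8.33), since its annotated exons add up to 9859 bases and its longest transcript to 5206 bases. Gria1 kept the first place in both regions with either length.

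Within the AMPA family, Gria1 made up 46.2% ± 2.82 (SD) of the sum per kilobase in the mPFC and 69.8% ± 2.54 in the vHipp, with ranges of 38.3 to 53.2% and 65.4 to 75.6% that did not overlap. The share of Gria2 was 23.1% ± 2.04 in the mPFC and 18.7% ± 2.06 in the vHipp. Gria3 and Gria4 together held a larger part in the mPFC, with 19.1% ± 1.28 and 11.6% ± 0.93, against 7.70% ± 0.50 and 3.82% ± 0.50 in the vHipp. The shares depended on the length: with that of the longest transcript, Gria1 made up 37.4% ± 2.69 in the mPFC and 61.8% ± 2.81 in the vHipp, again without overlap (30.1 to 44.1% and 57.01 to 68.4%), and Gria3, at 26.9% ± 1.54 in the mPFC, stood at the level of Gria2 (25.7% ± 2.06). The ratio of Gria1 to Gria2 was then 1.47 ± 0.21 and 2.75 ± 0.42. Per kilobase of annotated exons, the ratio of Gria1 to Gria2 was 2.02 ± 0.29 in the mPFC and 3.79 ± 0.57 in the vHipp. It was lower in the mPFC in all 39 mice with both regions (mean log2 ratio of the regions -0.91 ± 0.025 (SE), p = 1e-05 in a two-sided sign-flip permutation test, the smallest the 100000 resamples can give).

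Within the kainate family, Grik5 was the most abundant per kilobase in both regions, with 60.01% ± 4.76 in the mPFC and 62.6% ± 2.71 in the vHipp. The second place changed: Grik3 held 21.0% ± 5.09 in the mPFC and 5.96% ± 1.52 in the vHipp, and Grik4 held 6.35% ± 0.85 in the mPFC and 18.8% ± 3.27 in the vHipp. With the longest transcript the second places were the same, with Grik3 at 17.1% ± 4.28 in the mPFC and Grik4 at 15.4% ± 2.78 in the vHipp. The ratio of Grik4 to Grik5, the pair of high-affinity subunits, was 0.11 ± 0.014 in the mPFC and 0.30 ± 0.061 in the vHipp, and it was lower in the mPFC in all 39 mice (mean log2 ratio -1.49 ± 0.056, p = 1e-05, the same test). As a percentage of the AMPA sum, the kainate sum was 47.6% ± 4.66 in mPFC libraries and 32.9% ± 3.56 in those of the vHipp (mean log2 ratio 0.54 ± 0.031, higher in the mPFC in 39 of 39 mice, p = 1e-05). With the longest transcript this last log2 ratio was 0.40 and it was higher in 37 of 39 mice. These 3 ratios had Benjamini-Hochberg adjusted p-values of 1e-05.

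**Figure D3:**
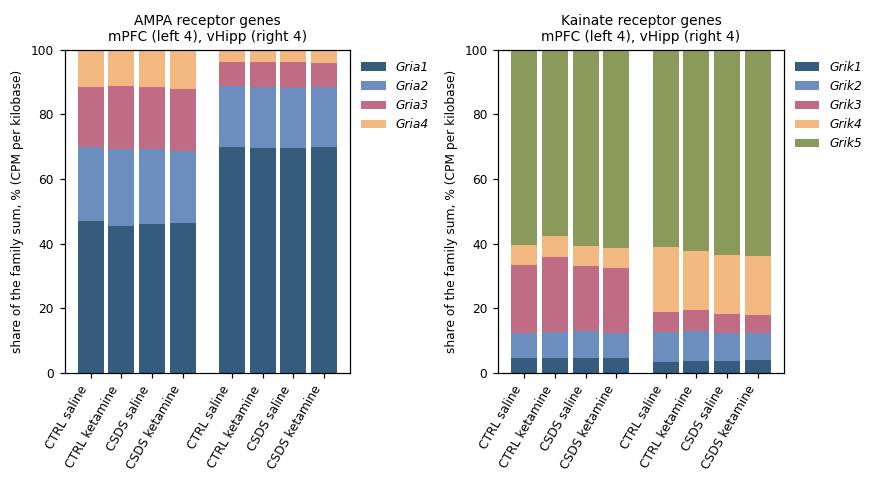
Mean share of each gene in the summed CPM per kilobase of annotated exons of its family, in percent, for the 4 groups of each region. Gria1 grows from 46.2% of the AMPA genes in the mPFC to 69.8% in the vHipp, Grik3 and Grik4 exchange places among the kainate genes, and the 4 bars of a region look alike.

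Transcripts of genes whose products work with the subunits also differed between the regions, in both directions. Among 16 genes of AMPA receptor auxiliary subunits, which set gating and synaptic anchoring, 8 were higher in the mPFC, 6 were lower and 2 were not called (Cacng2 and Cacng4, named here after their values were seen). Shisa6 (CKAMP52) had the largest difference, at 17.7 ± 5.35 CPM (SD) in the mPFC and 240 ± 45.6 CPM in the vHipp (log2 fold change -3.77 ± 0.081). Gsg1l was higher in the mPFC (1.31 ± 0.074), as was the TARP gene Cacng3 (1.06 ± 0.053), while the cornichon gene Cnih2 was lower (-1.04 ± 0.040). Of the kainate receptor auxiliary genes, Neto1 was lower in the mPFC, at 91.99 ± 12.8 CPM against 316 ± 84.6 CPM (-1.79 ± 0.072), and Neto2 was not called (0.12 ± 0.070, adjusted p = 0.146).

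Of 6 genes for AMPA receptor assembly in the endoplasmic reticulum, 1 was higher in the mPFC and 4 were lower, led by Porcn (-0.45 ± 0.026), Cpt1c (-0.43 ± 0.029), Abhd6 (-0.25 ± 0.027) and Abhd12 (-0.16 ± 0.031). Of 17 trafficking and anchoring genes, 7 were higher, 8 lower and 2 not called. Transcripts of genes for secreted clustering proteins stood at both ends of that list: Olfm2 (2.00 ± 0.052), Nptx2 (1.69 ± 0.067) and Olfm3 (1.08 ± 0.099) were higher in the mPFC, and Nptx1 (-1.42 ± 0.071) was lower. The 3 genes of the RNA-editing adenosine deaminase family were all called. Adarb1, which edits the GluA2 codon shown above, was at 204 ± 13.4 CPM in the mPFC and 257 ± 27.3 CPM in the vHipp (-0.33 ± 0.030), and Adar was higher in the mPFC (0.25 ± 0.025). Adarb2, a relative for which no editing activity is known, was lower in the mPFC (-1.01 ± 0.063). Over these 5 lists the share called is to be read against the 48.9% of all genes.

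**Figure D4:**
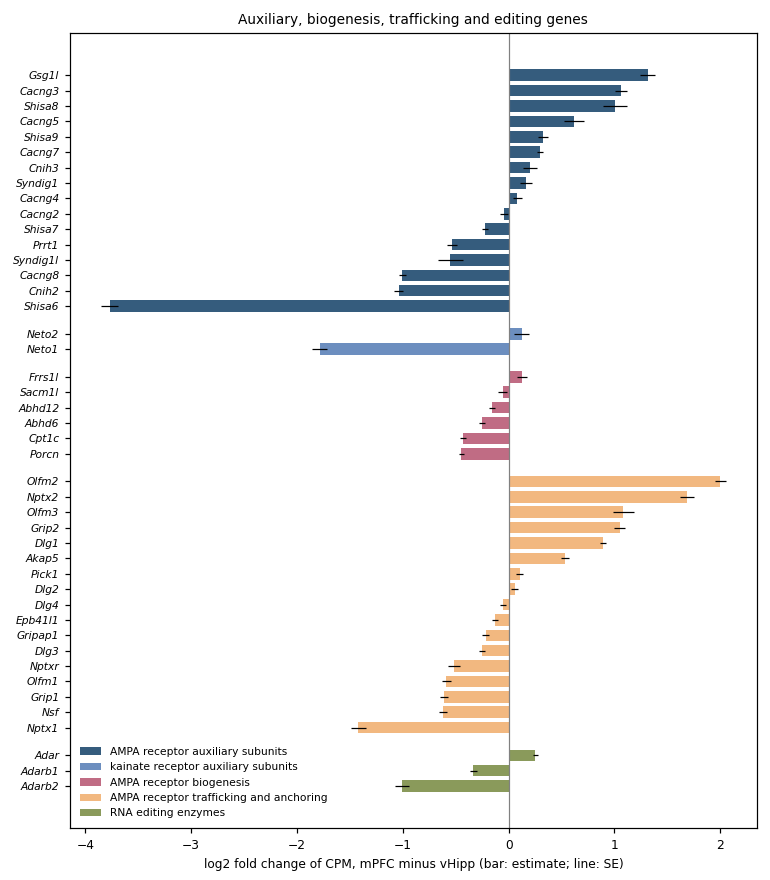
Log2 fold change of CPM, mPFC minus vHipp, of 44 genes for receptor assembly, auxiliary subunits, anchoring or the editing enzyme family, by list (colors), with the SE as a line. Bars reach from -3.77 (Shisa6) to 2.00 (Olfm2), and each list has genes on both sides of 0.

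Stress and ketamine were compared within each region, to ask whether a week after a single dose the receptor genes differed with stress, with ketamine or with both. None of the 9 genes passed an adjusted p of 0.05 in any of 14 comparisons (edgeR, smallest adjusted p 0.416), and neither did any other gene, so the share called was 0% of the 28993 genes tested in the mPFC and of the 28991 in the vHipp. Over the 14 the log2 fold changes of the 9 genes lay between -0.28 and 0.21, and the approximate 95% intervals of the fold lay between 0.59 and 1.53. For Gria1 the 7 intervals in the mPFC lay between 0.86 and 1.07-fold. These intervals and p-values treat the mice as independent. By the study's methods whole housing groups were stressed or not, and the labels give no cage, so the spread between housing groups cannot be told apart from that between mice or from the stress difference. The mouse numbers form 10 runs of 4 consecutive numbers, each of CTRL or of CSDS mice alone, which may or may not be the housing groups. With the run as a random effect (limma-voom), 0 of the 9 genes were called in any of the 14 comparisons. In the mPFC an unadjusted p under 0.05 was reached by 2.94% (saline) and 5.8% (ketamine) of all genes for CSDS minus CTRL, by 3.64% (CTRL) and 4.32% (CSDS) for ketamine minus saline, and by 3.52% and 3.07% for the averaged stress and ketamine differences. In the vHipp the shares were 5.57%, 5.42%, 2.88%, 2.9%, 9.71% and 3.39% in the same order, and 2.84% for the interaction. DESeq2 made no call on the 9 genes where it gave an adjusted p, while it called 14 other genes for CSDS minus CTRL averaged over treatments in the vHipp, and 77 with the set of mice (8 with consecutive library numbers) as a covariate. An unadjusted p under 0.05 was reached 5 times, by Gria2, Grik1 and Grik2, and those are given next as values.

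In the mPFC of ketamine-treated mice, Gria2 ranged from 505 to 787 CPM in CTRL mice (median 600) and from 370 to 705 CPM in CSDS mice (median 542). The log2 fold change of CSDS minus CTRL was -0.20 ± 0.088 (unadjusted p = 0.0277, adjusted p = 0.830, edgeR), and 5.8% of all genes reached an unadjusted p under 0.05 there. The groups overlapped widely. The lowest value, 370 CPM, was that of mouse 1, and without its library the difference was -0.15 (unadjusted p = 0.0765). In saline-treated mice the same difference was 0.05, and the interaction of stress and ketamine was -0.25 ± 0.12 (unadjusted p = 0.0497, adjusted p = 0.898), and -0.20 without the library of mouse 1 (unadjusted p = 0.0808). Grik2 had an interaction of -0.22 ± 0.090 (unadjusted p = 0.0209, adjusted p = 0.898), and of -0.21 without that library (unadjusted p = 0.0245). Its medians were 77.5 CPM in CTRL saline, 84.7 in CTRL ketamine, 84.2 in CSDS saline and 76.2 in CSDS ketamine mice. Interactions with an unadjusted p under 0.05 made up 5.31% of all genes. Summed oligodendrocyte markers in the mPFC had medians of 1475 CPM in CTRL ketamine and 2163 CPM in CSDS ketamine mice, within ranges of 560 to 3277 and 494 to 5683 CPM, and their part in these values was not tested.

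In the vHipp, Grik1 and Grik2 reached an unadjusted p under 0.05 for CSDS minus CTRL averaged over both treatments, where 9.71% of all genes did. Grik1 had medians of 20.3 and 21.9 CPM in CTRL mice given saline and ketamine, and of 21.9 and 25.6 CPM in the matching CSDS mice, with a log2 fold change of 0.20 ± 0.081 (unadjusted p = 0.0184, adjusted p = 0.416). Without the library of mouse 11 it was 0.16 (unadjusted p = 0.0427). Grik2 had means of 119.8 ± 14.4 and 117.3 ± 13.7 CPM (SD, n = 10 each) in CTRL mice given saline and ketamine, and of 106.1 ± 16.0 and 106.5 ± 17.7 CPM in the matching CSDS mice, with a log2 fold change of -0.14 ± 0.062 (unadjusted p = 0.0234, adjusted p = 0.437), and -0.13 without the library of mouse 11 (unadjusted p = 0.0355). With the run as a random effect (limma-voom), the unadjusted p was 0.0616 for Grik1 and 0.0279 for Grik2. In the same comparison 4 of 4 microglia markers and 4 of 5 astrocyte markers had higher values in CSDS mice at an unadjusted p under 0.05, as did 3 of 5 choroid plexus, 2 of 3 endothelial, 2 of 3 oligodendrocyte precursor, 2 of 6 striatal, 1 of 5 excitatory and 0 of 5 oligodendrocyte markers. Of 7 inhibitory neuron markers, Pvalb (0.33, unadjusted p = 0.011) and Vip (0.45, unadjusted p = 0.0065) did. Of 6 hippocampal markers, Fibcd1 (0.84) and Spink8 (0.78) had higher values and Prox1 a lower one (-0.43), and 1 of 6 cortical layer markers was higher and 1 lower. None of these markers passed the adjusted threshold, and the counts include all libraries. The summed microglia markers ranged from 108.9 to 194.8 CPM in CTRL mice and from 141.1 to 437 CPM in CSDS mice, the summed astrocyte markers from 927 to 1403 CPM and from 953 to 3043 CPM. Both upper ends are the library of mouse 11, and without it they were 239 and 1798 CPM. The part of all these markers in the values of Grik1 and Grik2 was not tested.

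**Figure D5:**
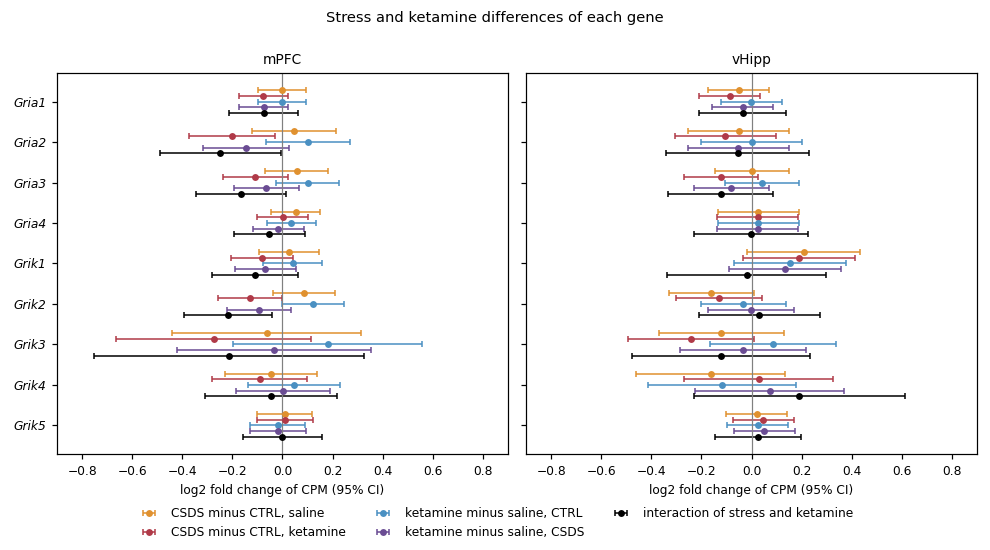
Log2 fold changes of CPM for 5 comparisons of stress and ketamine within the mPFC (left) and the vHipp (right), with approximate 95% confidence intervals. Estimates lie between -0.28 and 0.21, nearly all intervals span 0, and none of the 9 genes passed the adjusted threshold.

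The stress and ketamine differences were also compared between the regions, in 4 comparisons. None of the 9 genes and none of the 31534 genes tested passed the adjusted threshold. At an unadjusted p under 0.05, the stress difference of saline-treated mice differed between the regions for Grik2. Its log2 fold change of CSDS minus CTRL was 0.087 ± 0.063 in the mPFC and -0.16 ± 0.087 in the vHipp, values of opposite sign of which neither reached an unadjusted p under 0.05, and the difference of mPFC minus vHipp was 0.27 ± 0.11 (unadjusted p = 0.0172, adjusted p = 0.894), where 5.5% of all genes reached that level. In ketamine-treated mice the stress difference of Grik1 was -0.082 ± 0.063 in the mPFC and 0.19 ± 0.11 in the vHipp, also of opposite sign and each with an unadjusted p over 0.05. The difference of mPFC minus vHipp was -0.27 ± 0.14 (unadjusted p = 0.0499, adjusted p = 1.00), where 4.1% of all genes did, and without the library of mouse 11 it was -0.18 (unadjusted p = 0.162), and without that of mouse 1 it was -0.26 (unadjusted p = 0.0695). For ketamine minus saline none of the 9 genes reached that level, where 3.16% (CTRL) and 3.56% (CSDS) of all genes did. Of the partner genes of the 5 lists, none was called in these 18 comparisons.

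Since each mouse gave both regions, it was asked whether a mouse that was high in the mPFC was also high in the vHipp, as the deviation from its group in log2 CPM, over 39 mice. For Gria2 Pearson's r was 0.69 and Spearman's rho 0.62 (permutation p = 1e-05, the smallest the 100000 resamples can give, and 3e-05). After Benjamini-Hochberg adjustment over the 9 genes the values were 9e-05 and 0.00027. Without the 2 mice farthest from the median in the mPFC r was 0.70. For Gria3 r was 0.49 and rho 0.47 (permutation p = 0.00143 and 0.00268, adjusted 0.00643 and 0.0121), and r was 0.37 without the 2 farthest mice. Without the 3 mice whose libraries stand apart, r was 0.72 for Gria2 and 0.58 for Gria3. The other 7 genes had r between -0.045 and 0.33 and did not pass the adjusted threshold (smallest adjusted permutation p 0.114). A positive correlation was the rule rather than particular to these genes: over all 15184 genes of at least 1 CPM in both regions the median r was 0.30, and 87.9% were above 0. An r at or above that of Gria2 was found in 5.70% of all genes and one at or above that of Gria3 in 23.7%, so that of Gria3 was not unusual among genes. Those of Gria1 (0.12), Gria4 (-0.045), Grik1 (0.20), Grik2 (0.24) and Grik4 (-0.014) lay below the median.

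Mice with consecutive library numbers form 5 sets of 8, which could share handling. Within the sets, r of Gria2 was positive in 5 of 5 and lay between 0.093 and 0.86, and that of Gria3 was positive in 5 of 5 and lay between 0.053 and 0.63. With set means removed, r was 0.53 for Gria2 (adjusted permutation p = 0.00522) and 0.39 for Gria3 (adjusted permutation p = 0.0698), so the relation of Gria3 no longer passed the threshold within sets. The median over all genes was then 0.24, and 12.6% of them had an r at or above that of Gria2.

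As a description of which genes varied together within a region, Gria2 and Gria3 had the highest correlation of any pair of the 9 genes in both regions (r = 0.76 over 39 mPFC libraries and 0.84 over 40 vHipp libraries, as deviations from group means). Gria2 also varied with Grik2 (0.68 and 0.60), and Grik4 with Grik5 (0.45 and 0.65). Gria2 and Grik5 varied in opposite directions (-0.66 and -0.26), and so did Grik1 and Grik4 (-0.22 and -0.54), among other pairs. Grik5 also varied in the opposite direction to Gria4 (-0.35 and -0.51) and to Grik1 (-0.27 and -0.54). These values come from the same libraries, those that stand apart included, and share their depth and RNA quality.

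Over 15183 other genes of at least 1 CPM in both regions, the genes most like each subunit were taken by the mean correlation of both regions. Gria2 had the closest partners, Fam126b (0.94) and Bicd1 (0.93), followed by Gria3 with Fam135b (0.86) and Dcun1d4 (0.85). Among the kainate genes, Grik4 was most like Itm2c (0.83) and Akap13 (0.81), Grik2 most like Ccnt2 (0.82) and Mbtps2 (0.78), Grik3 most like St3gal1 (0.80) and Grm8 (0.80), and Grik5 most like Agap3 (0.79) and Cacnb3 (0.79). The values were lower for Gria1 with Slit1 (0.73) and Galnt16 (0.67), for Gria4 with Smarca1 (0.69) and Impact (0.68), and for Grik1 with Abat (0.68) and Tox2 (0.65). Some of these means joined unequal values of the mPFC and the vHipp, such as 0.52 and 0.85 for Impact, 0.96 and 0.64 for St3gal1, and 0.53 and 0.83 for Abat. By Spearman correlation the 2 named genes of each subunit stayed among its 10 most like. The first place changed for Gria2 (Bicd1), Gria4 (Reps2) and Grik5 (Cacnb3) and stayed for the others. Lower places changed as well, with Cacng8 second for Gria1.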

How the data were processed

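RNA was extracted from mPFC and vHipp punches of each mouse and sequenced as stranded mRNA libraries. The table deposited by the authors holds unnormalized counts of 55471 genes and the exonic length of each, and per the labels the processing tools were CASAVA and bcl2fastq 2.20.0.422. The aligner and counting program are not given in the sources used here. All 9 gene positions equal those of GENCODE release M21 (GRCm38). Groups and mouse numbers were taken from the labels; social box and rank were not used. Libraries with 1 mouse number come from the same mouse and are paired: the median correlation of deviations was 0.29 for the same mouse and -0.0032 for different mice, over 15184 genes.

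Genes with more than 10 counts in total and detected in more than 3 libraries were tested with edgeR 4.0.16 (R 4.3.3), quasi-likelihood, TMM, Benjamini-Hochberg adjustment over all genes and a threshold of 0.05, two-sided, without covariates: each region with its 4 groups, and both regions with 8 groups. CPM were computed with TMM factors across the 79 libraries, and log2 CPM with a prior count of 2. Intervals are the estimate ± the normal 95% quantile times the SE. Each of the 9 genes had at least 292 counts in every library. Alternatives were RLE normalization, other filters, DESeq2 1.42.0, the set as a covariate, only the groups compared, and the mouse as a block. Another was limma-voom (limma 3.58.1), with the run as a random effect within a region and the mouse as one between regions. After seeing the data, 3 libraries were also left out. The tests were tried on simulated data. The members, lists and tests were chosen with earlier results of these data known. The named genes were the 9 members, the 2 genes most like each, and up to 4 called genes with the largest difference of each list of partners.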

Additional observations from a re-analysis of the deposited data

How the results depend on the processing

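The number of the 9 genes called between the regions was 8 with RLE normalization, both other filters, DESeq2, and edgeR or DESeq2 with the set as a covariate. It was 9 in the 2 settings that used the mouse, where Grik1 was added. With the mouse as a block (edgeR, 39 mice), Grik1 had a log2 fold change of 0.10 (adjusted p = 0.0471). With the mouse as a random effect (limma-voom) it was 0.10 (adjusted p = 0.0426). The block changed no other call. Without 1 of the 3 libraries that stand apart the number was 8 to 9, and without all 3 it was 9, with Grik1 at 0.11 (adjusted p = 0.0307). In each comparison of stress or ketamine 0 of the 9 genes were called under every setting. DESeq2 called 14 of all genes for CSDS against CTRL averaged over treatments in the vHipp, and 77 with the set as a covariate, none of them among the 9, where edgeR called 0. With the set it also called 2 for CSDS against CTRL in the mPFC, in ketamine-treated mice and on average, and 1 for saline-treated mice in the vHipp. DESeq2 gave no adjusted p (NA) to Grik1, and without the set none to Grik2, for CSDS against CTRL averaged in the vHipp (unadjusted p = 0.0167 and 0.0256), so these were left out of its calls. The correlation between regions turned from 0.24 to -0.14 for Grik2 and from -0.014 to 0.075 for Grik4 with set means removed, and neither passed the threshold in either form. The causes of these changes were not tested. Levels per kilobase depend on the annotated length, and those of Gria1 to Gria4, Grik1, Grik2 and Grik5 moved by over 1 SD with the longest transcript. In simulated data for CSDS against CTRL in the mPFC of ketamine-treated mice (28993 genes), edgeR recovered 48% of 50 genes changed 1.2-fold and 78% of 50 changed 1.5-fold, so smaller differences can be missed. The simulated libraries were independent, without a spread between housing groups, so these shares hold only for that case.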
